A study of Mus musculus with 2 samples.

Results

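Genes of the sclerotome and of cartilage formation were followed in single cells of the mouse aorta-gonad-mesonephros (AGM) region, the tissue around the embryonic dorsal aorta in which blood stem cells first arise. The genes were taken as a fixed list: the transcription factors Pax1, Pax9, Nkx3-2, Sox9, Sox5, Sox6, Uncx, Tbx18 and Foxc2, and the cartilage proteoglycan gene Acan, 10 of 31053 genes in the count tables. Whole AGM regions were taken at embryonic day 11 from WT (PDGFRB +/+) embryos and from KO (PDGFRB -/-) embryos, in which the deletion is constitutive and not limited to any cell type. Each genotype gave 1 10x Chromium library, loaded for 7000 cells. With 1 library per genotype, a difference between the libraries has no replicate check and no test is given. All intervals are 95% intervals that cover counting error only.

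The sclerotome is the ventral part of the somite, and its cells build the vertebrae and ribs. Pax1 and Pax9 are paired-box factors of the early sclerotome that act under Hedgehog signals from the notochord and floor plate, and Nkx3-2 acts downstream of them. Uncx marks the caudal part of each somite and Tbx18 the rostral part. Sox9 is the master factor of cartilage, Sox5 and Sox6 act with it on cartilage matrix genes, and Acan encodes aggrecan, the main proteoglycan of that matrix. Foxc2 is a forkhead factor of paraxial mesoderm, blood vessels and kidney.

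The promoters of 5 members are printed because they belong to the pairs and to the gene on which the results turn. They come from RefSeq on GRCm38.p6 and run from 250 bases before to 50 bases after the gene start. Capitals mark matches to TAATTA, the core of many homeobox factor sites, to the SOX motifs AACAAT and ACAAAG, or to the GLI motif GACCACCCA, searched on both strands.
Uncx, chr5:139543648-139543947, plus strand: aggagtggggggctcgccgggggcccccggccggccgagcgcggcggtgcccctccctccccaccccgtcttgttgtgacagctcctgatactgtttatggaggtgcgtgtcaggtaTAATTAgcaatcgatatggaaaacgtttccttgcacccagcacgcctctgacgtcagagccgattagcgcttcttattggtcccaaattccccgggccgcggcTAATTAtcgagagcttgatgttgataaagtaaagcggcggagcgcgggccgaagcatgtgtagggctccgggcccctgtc
Tbx18, chr9:87731211-87731510, minus strand: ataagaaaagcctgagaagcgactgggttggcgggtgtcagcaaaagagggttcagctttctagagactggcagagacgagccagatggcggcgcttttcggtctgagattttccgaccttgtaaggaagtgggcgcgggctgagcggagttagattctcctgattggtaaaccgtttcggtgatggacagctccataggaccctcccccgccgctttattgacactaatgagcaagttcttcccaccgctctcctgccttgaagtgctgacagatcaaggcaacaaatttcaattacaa
Pax1, chr2:147364744-147365043, plus strand: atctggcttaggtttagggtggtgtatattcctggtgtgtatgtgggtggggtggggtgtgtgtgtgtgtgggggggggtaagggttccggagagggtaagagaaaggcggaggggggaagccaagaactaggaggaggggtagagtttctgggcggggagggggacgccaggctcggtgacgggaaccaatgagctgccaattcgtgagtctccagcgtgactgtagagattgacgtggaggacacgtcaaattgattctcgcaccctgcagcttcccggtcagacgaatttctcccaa
Pax9, chr12:56695221-56695520, plus strand: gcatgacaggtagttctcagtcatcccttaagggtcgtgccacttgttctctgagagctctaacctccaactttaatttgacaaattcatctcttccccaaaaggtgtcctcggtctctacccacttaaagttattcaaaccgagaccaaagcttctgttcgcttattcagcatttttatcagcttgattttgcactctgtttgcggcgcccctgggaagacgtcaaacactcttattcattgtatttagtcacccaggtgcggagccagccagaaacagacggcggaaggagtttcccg
Acan, chr7:79052976-79053275, plus strand: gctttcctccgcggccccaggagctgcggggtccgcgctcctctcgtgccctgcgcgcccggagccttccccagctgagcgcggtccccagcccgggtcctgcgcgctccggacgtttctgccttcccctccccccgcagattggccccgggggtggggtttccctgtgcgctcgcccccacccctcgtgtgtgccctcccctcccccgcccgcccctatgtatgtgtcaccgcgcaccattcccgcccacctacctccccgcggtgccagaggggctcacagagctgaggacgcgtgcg

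The Uncx window held TAATTA at 2 places, starting 133 and 30 bases before the RefSeq gene start, and 5.29% of all 32851 promoter windows held that motif. The other windows printed held none of the 4 motifs. AACAAT was found in 10.7% of all windows, ACAAAG in 18.7% and GACCACCCA in 0.253%. The Uncx window held 26 CG pairs and the Acan window 31, against a median of 7 over all windows. RefSeq windows were found for 8 of the 10 members. A match is a description of the letters and not a binding site.

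Barcodes with at least 2000 UMIs (unique molecules counted) and under 10% of UMIs from mitochondrial genes were used, 8253 in WT with a median of 13321 UMIs and 8165 in KO with a median of 12391. The libraries shared 20 barcodes. Cells were sorted into 12 classes by marker genes, none of them a member, and 50.1% of WT cells and 59.3% of KO cells fell in no class. Paraxial cells carried at least 2 markers of a short list, Meox1, Meox2 and Tcf15 among them, and numbered 626 in WT and 981 in KO. Meox1 stood at 149 CPM (counts per 1000000 summed UMIs) in the WT paraxial cells and 159 in KO, and Tcf15 at 130 and 106. Pdgfrb, the deleted gene, stood at 43.1 CPM in all WT cells and 7.09 in KO. The libraries also differed in sex, with Xist at 793 CPM in WT and 0.415 in KO, so genotype and sex of the embryos cannot be told apart. Paraxial cells made up 15.2% (14.1 to 16.3) of the WT cells in a class and 29.5% (28.0 to 31.1) of the KO ones.

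Levels were ordered over the 9 classes with at least 50 cells in both libraries. Uncx, Pax1, Pax9 and Sox9 were the members most concentrated in paraxial cells. Uncx stood at 137 CPM (130 to 143) in the WT paraxial cells against 5.27 in the cells of the other classes, a log2 ratio of 4.70 (4.54 to 4.85). In KO it stood at 124 CPM (118 to 129) against 8.96, a log2 ratio of 3.79. Pax1 was at 80.8 CPM (75.8 to 85.9) against 11.1 in WT and at 121 CPM (116 to 126) against 22.0 in KO. Pax9 was at 39.5 CPM (36.1 to 43.2) against 5.33 in WT and at 58.7 CPM (55.2 to 62.4) against 9.26 in KO. In each library these 3 genes had their highest level of the 9 classes in paraxial cells, with an interval that did not meet that of the next class.

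Sox9 reached 173 CPM in WT paraxial cells (165 to 180) and 168 in KO ones (162 to 174), against 46.6 and 65.9 in the other classes. Next in WT came splanchnic mesenchyme at 69.2 CPM, and in KO the coelomic and gonadal ridge cells at 108 CPM. Sox5 was not highest in paraxial cells in KO, where neural crest and sympathetic cells held 103 CPM (94.9 to 112) and paraxial cells 73.6 (69.7 to 77.7). The same WT classes held 69.6 (63.7 to 76.0) and 65.2 CPM (60.8 to 69.9) of Sox5, with intervals that overlapped.

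Tbx18 and Foxc2 had their highest levels in smooth muscle cells. Smooth muscle cells held 34.5 CPM of Tbx18 in WT (30.8 to 38.5) and 42.3 in KO (37.8 to 47.2), against 9.18 and 7.89 in paraxial cells. Of Foxc2 they held 82.3 CPM (76.6 to 88.3) and 71.2 (65.3 to 77.4), against 48.7 and 40.7 in paraxial cells. Sox6 was highest in WT in splanchnic mesenchyme at 25.4 CPM (23.5 to 27.5), and in KO in coelomic and gonadal ridge cells at 33.0 CPM (28.9 to 37.6). These intervals overlapped with those of neural crest and sympathetic cells, at 23.7 CPM in WT (20.3 to 27.5) and 27.5 in KO (23.4 to 32.2). Acan was low in each of the 9 WT classes, with splanchnic mesenchyme at 3.20 CPM (2.54 to 3.97) and paraxial cells at 1.61 (0.984 to 2.49). Nkx3-2 was close to the limit of detection, with 31 UMIs in all WT cells and 70 in all KO cells.

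**Figure D1:**
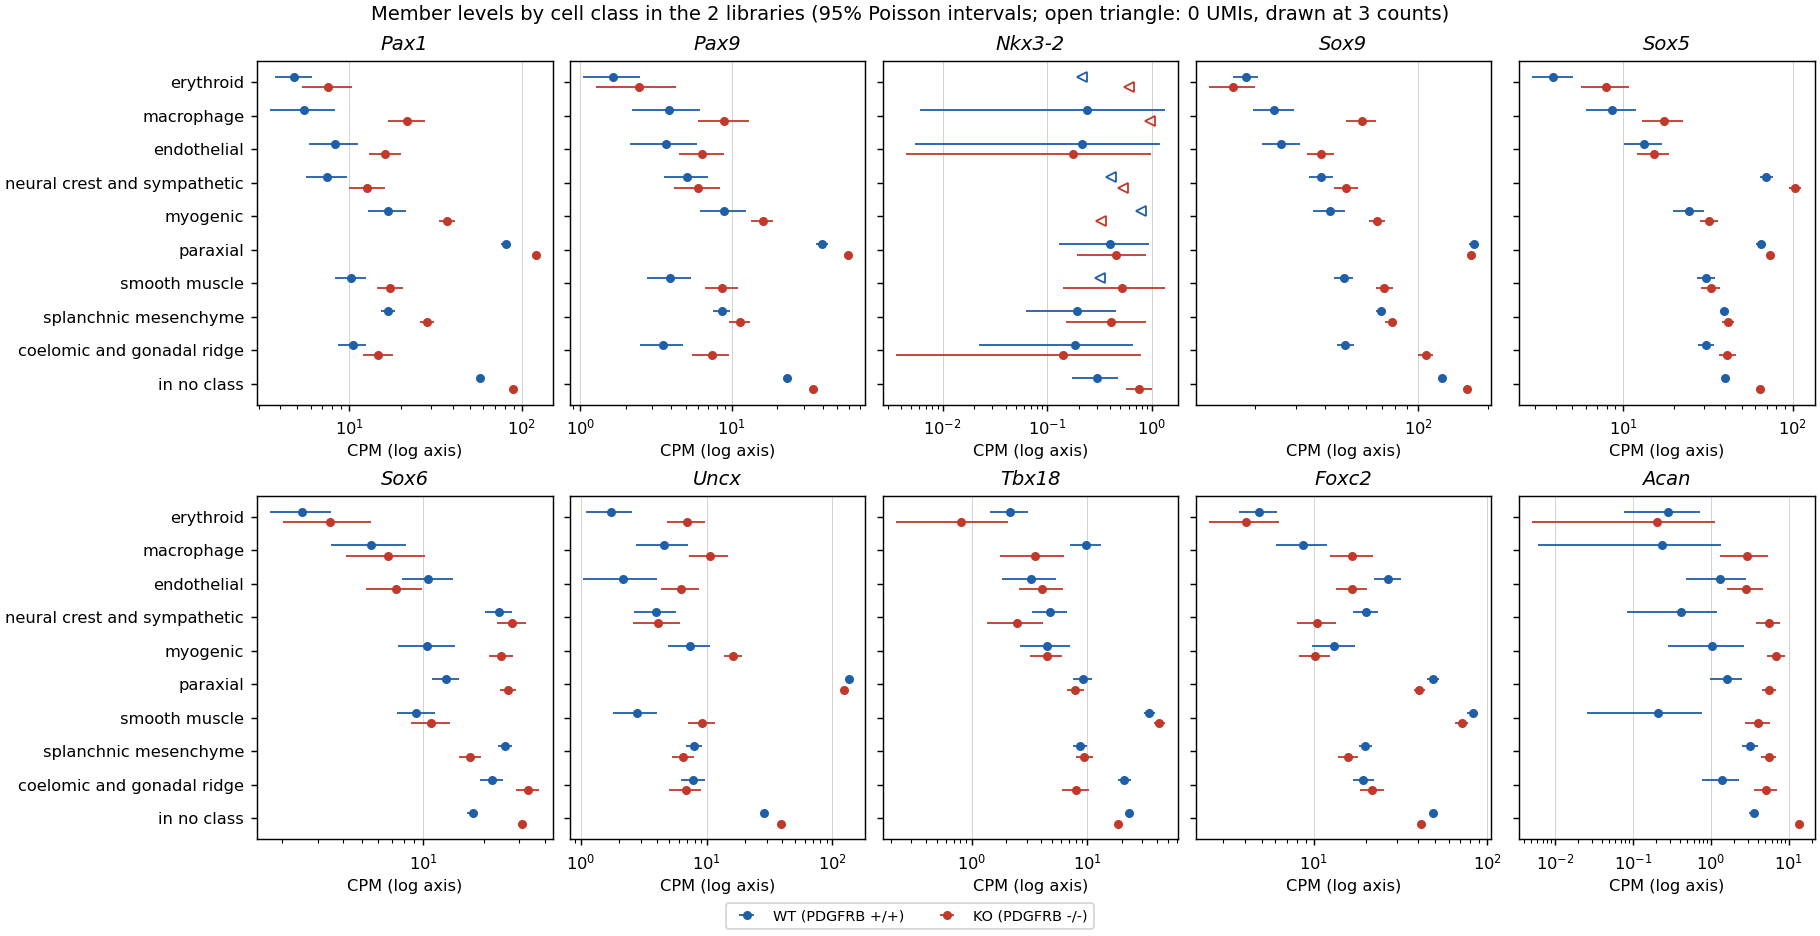
CPM of each member (log axis) in the 9 classes with at least 50 cells in both libraries and in cells of no class, with WT in blue, KO in red, 95% Poisson intervals as lines and open triangles for 0 UMIs drawn at the level of 3 counts. Uncx, Pax1, Pax9 and Sox9 peak in paraxial cells, and Tbx18 and Foxc2 in smooth muscle.

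Of the 9 members with at least 50 UMIs in the groups compared, 6 were 2-fold or more higher in paraxial cells than in the other classes in WT (Uncx, Pax9, Pax1, Sox9, Sox5 and Foxc2), where 2.15% of all 14271 genes tested were. In KO it was 4 of 9 (Uncx, Pax9, Pax1 and Sox9), where 2.55% of 13987 genes were. The median log2 ratio of the members was 1.13 in WT and 0.96 in KO, against 0.030 and 0.046 over all genes tested. Sox5 at 0.96 and Foxc2 at 0.93 lay just under 2-fold in KO. With the cells of no class added to the other cells, 4 members passed in WT and 3 in KO, beside 1.5% and 1.38% of all genes tested. The members were chosen as sclerotome and cartilage genes with earlier results of these data known. These counts and medians therefore describe the list and are not a test of it.

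The cells of no class carried much of the members' RNA. They held 63.2% of all Pax1 UMIs in each library, 54.8% of Sox9 UMIs in WT and 61.0% in KO, and 59.4% and 70.7% of Acan UMIs. Only Uncx had a larger share in WT paraxial cells (45.4%) than in cells of no class (43.2%). The gate on paraxial markers therefore describes a part of the cells with these genes.

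Member RNA was also found in barcodes with at most 100 UMIs, which hold free RNA of the suspension, and its part in the class values was not tested. There Sox9 stood at 110 CPM in WT and 179 in KO, Pax1 at 45.1 and 58.5, and Acan at 2.82 and 5.94. In erythroid cells, which should lack Sox9, it was found in 1.72% of WT cells (median 16779 UMIs) and 2.17% of KO cells (median 19738) at 2000 UMIs per cell. In paraxial cells it was found in 26.3% (median 15420) and 23.6% (median 14095).

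Between the genotypes, Acan and Sox6 were the members 2-fold or more higher in the KO paraxial cells. Acan had 20 UMIs in WT and 100 in KO, or 1.61 and 5.64 CPM, a log2 ratio of 1.81 (1.10 to 2.58). Sox6 had 161 and 467 UMIs, or 13.0 and 26.3 CPM, a log2 ratio of 1.02 (0.76 to 1.29) that lay at the 2-fold mark and came to 0.96 with TMM factors, 0.89 with the gate on Meox1 and Tcf15 and 0.74 as the mean of per-cell CPM. These 2 of 9 stand beside 2.37% of 11692 genes that were 2-fold or more higher in KO and 1.10% that were lower. Acan reached the minimum of 50 UMIs through its KO counts, so nothing is read from its place in this count.

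Pax1 and Pax9 were higher in KO paraxial cells by less than 2-fold, with log2 ratios of 0.58 (0.48 to 0.69) and 0.57 (0.41 to 0.73). Sox5 was at 0.17 (0.05 to 0.30) and Sox9 at -0.04 (-0.12 to 0.04). The segment markers Uncx at -0.14 (-0.24 to -0.05) and Tbx18 at -0.22 (-0.59 to 0.15) and the forkhead gene Foxc2 at -0.26 (-0.42 to -0.10) were on the other side of 0. Tbx18 came to 0.11 with 3 of 4 paraxial markers, and Sox9 to 0.047 under 5% mitochondrial UMIs. With the pooled CPM of erythroid cells and macrophages subtracted as a stand-in for free RNA, Tbx18 came to 0.20. The median of the members was 0.17, against 0.083 over all genes tested. Acan, which reached the minimum of UMIs through KO, is among these members, so nothing is read from this median.

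In cells of no class, Acan was at 3.55 CPM in WT and 13.5 in KO, a log2 ratio of 1.92 (1.70 to 2.15). Nkx3-2 had 17 and 50 UMIs there, a log2 ratio of 1.35 (0.53 to 2.23). These 2 of 10 members stand beside 1.81% of 14284 genes that were higher and 1.97% that were lower by 2-fold. Nkx3-2 reached the minimum through its KO counts there, so nothing is read from its place in the count. Over all cells the same 2 genes passed, with Acan at 1.96 (1.79 to 2.14) and Nkx3-2 at 1.25 (0.62 to 1.91). Of 16113 genes, 2.57% were higher and 2.67% lower by 2-fold. With 31 UMIs in WT and 70 in KO, Nkx3-2 again reached the minimum through KO, so nothing is read from its place in this count. The median of the members over all cells was 0.58, against 0.062 over all genes. Nkx3-2, which reached the minimum of UMIs through KO, is among these members, so nothing is read from this median. The libraries also differed in their mix of cells, with 626 paraxial cells of 8253 in WT and 981 of 8165 in KO. The part of this mix in the ratios over all cells was not tested.

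Pax1 was higher in KO in each of the 9 classes, with an interval above 0 in all of them, and the erythroid cells were among these at 4.80 CPM in WT and 7.53 in KO. As the free RNA of Pax1 was also higher in KO, its part in these class values was not tested. Sox9 had an interval above 0 in 7 of 9 classes. Macrophages were among these, where a single KO cell held 113 of the 179 Sox9 UMIs. For Pax1, a single KO macrophage held 25 of the 68 UMIs. The level of Sox9 in coelomic and gonadal ridge cells was 48.9 CPM for WT (44.8 to 53.2) and 108 for KO (100 to 116). Tbx18 lay the other way in that class, with 21.1 CPM for WT (18.4 to 24.0) and 8.08 for KO (6.12 to 10.5). Foxc2 had an interval below 0 in 5 of 9 classes and above 0 in 1. Acan had an interval above 0 in 7 classes, and Pax9 and Sox5 in 6. Uncx had an interval above 0 in 5 classes and below 0 in 1, Sox6 in 3 and 1, and Tbx18 in 1 and 3. The share of all genes with such counts was not taken, so nothing is read from these class counts.

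**Figure D2:**
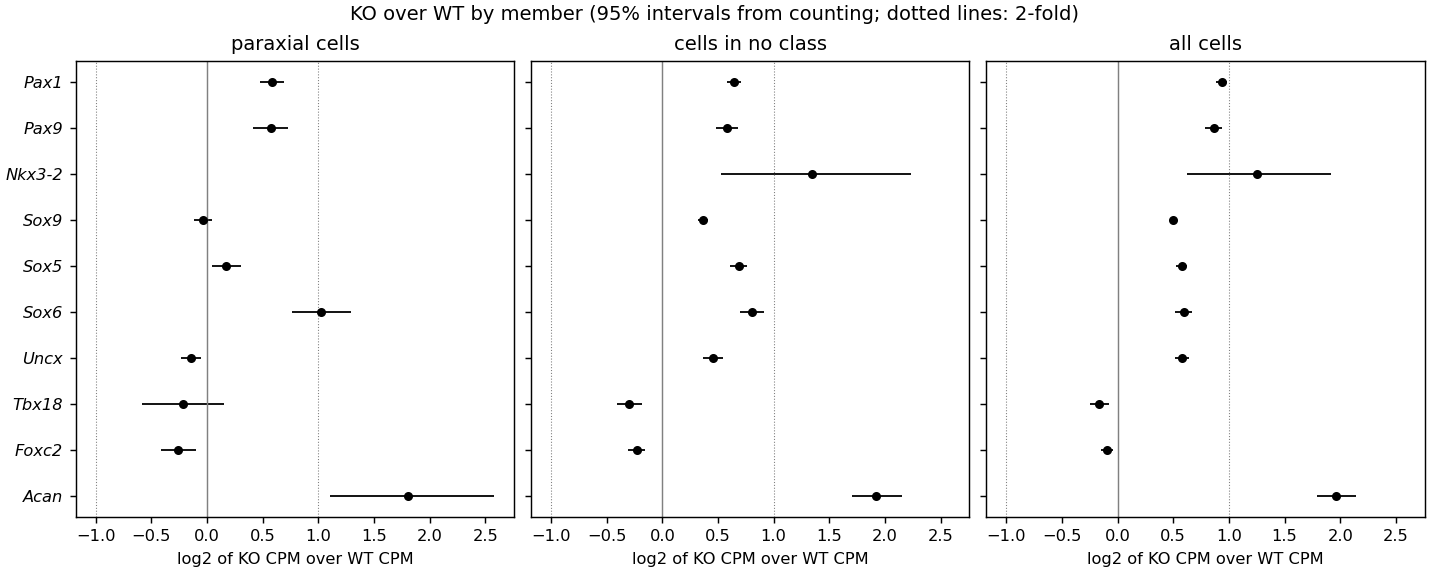
Log2 ratio of KO CPM over WT CPM for each member with at least 50 UMIs, in paraxial cells, cells of no class and all cells, with 95% counting intervals and dotted lines at 2-fold. Acan lies at 1.81, 1.92 and 1.96, and Tbx18 and Foxc2 lie below 0 in each panel.

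More KO than WT cells held several Acan molecules. In WT, 32 of 8253 cells had 3 or more Acan UMIs, 0.388% (0.265 to 0.547, exact binomial), and the highest cell had 9. In KO it was 186 of 8165 cells, 2.28% (1.97 to 2.63), with up to 16 in a cell. Those cells held 35.0% of Acan UMIs in WT and 68.9% in KO. Of the WT paraxial cells 0 of 626 had 3 or more, and of the KO ones 13 of 981, or 1.33% (0.707 to 2.26). The erythroid cells had 0 of 749 in WT and 0 of 225 in KO. In KO the share was 2.79% in cells of no class, 2.54% in myogenic cells (10 of 393) and 2.21% in endothelial cells (3 of 136). It was 2.12% in smooth muscle (5 of 236), 1.89% in neural crest and sympathetic cells (4 of 212) and 1.64% in splanchnic mesenchyme (11 of 672). Of the KO macrophages 1 of 170 had 3 or more, with 8 Acan UMIs. Barcodes with 3 or more were thus not limited to the paraxial gate. Doublets were not called, and their part in these shares was not tested.

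The cartilage matrix genes that reached 50 UMIs lay above 0 in the KO paraxial cells, while Matn3 and Ucma, under that minimum, lay below it. Of 20 genes in the list, 14 reached 50 UMIs in paraxial cells and all 14 were higher in KO. Their median log2 ratio was 0.76, against 0.083 over all genes tested, and 6 of them were 2-fold or more higher. Among these 6, Mia, Cnmd, Col11a2 and Epyc had under 50 UMIs in WT and reached the minimum through KO. Neither the counts nor the median are therefore support for a direction. Matn3, a matrilin with 19 UMIs in WT and 8 in KO, and Ucma, a cartilage matrix protein with 21 and 6, did not reach it and had log2 ratios of -1.76 (-3.16 to -0.50) and -2.32 (-3.92 to -0.97). Mia, a secreted cartilage protein, had 14 UMIs in WT and 282 in KO, a log2 ratio of 3.82 (3.05 to 4.71). Cnmd, which encodes chondromodulin, was at 1.68 (1.03 to 2.38) and Col9a3, a chain of collagen IX, at 1.28 (1.13 to 1.42). Col2a1, the main collagen of cartilage, was at 0.17 (0.12 to 0.22), at 415 CPM in WT and 467 in KO.

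Among the 4 osteogenic factors, Runx2, the early factor of bone formation, had 43 UMIs in WT and 189 in KO, a log2 ratio of 1.62 (1.14 to 2.13), and Mef2c was at -0.07 (-0.24 to 0.09). Of 5 tendon genes 1 passed 2-fold, Tnmd with 13 and 75 UMIs at 2.01 (1.15 to 2.99), and Scx was at 0.27. Runx2 and Tnmd likewise reached the minimum through KO. Of the 11 Hedgehog pathway genes tested none passed 2-fold. Above 0 were 7 of them, beside 7135 of all 11692 genes tested, so nothing is read from this count. The pathway's target genes Ptch1 at 0.30 (0.16 to 0.44) and Gli1 at 0.44 (0.11 to 0.77) were among the 7. Of 9 other paraxial transcription factors none passed, with Ebf3 nearest at 0.97 (0.85 to 1.09). Of the 2 segmentation and polarity genes tested, Epha4 was at 0.34 and none passed.

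**Figure D3:**
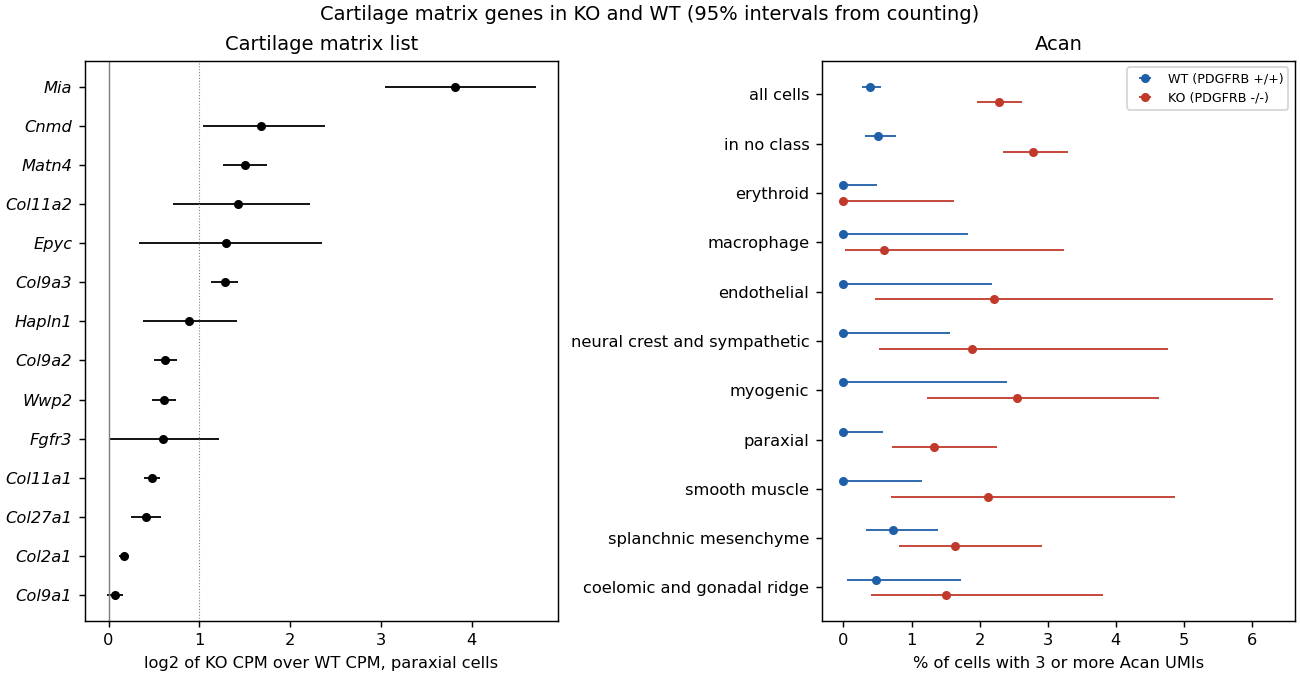
Left, log2 ratio of KO CPM over WT CPM in paraxial cells for the 14 cartilage list genes with at least 50 UMIs (Matn3 and Ucma, both lower in KO, are not among them), with 95% counting intervals and a dotted line at 2-fold. Right, percent of cells with 3 or more Acan UMIs by class, with exact binomial intervals, where all cells stand at 0.388% in WT and 2.28% in KO.

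Co-detection was read at 2000 UMIs per cell, since a deeper cell shows more genes. A single random draw of 2000 UMIs moved these shares widely, so the values given are exact means over all draws, a choice made after the data were seen, with the planned draw beside them. Pax9 was found in 19.0% of WT paraxial cells with Pax1 and in 5.54% of those without it. In KO it was found in 21.6% and 7.85%. The planned draw gave 23 of 92 WT cells (16.6 to 35.1%) and 4.68% (3.05 to 6.83), and another draw 14.5% and 6.26%. With all UMIs, Pax9 was found in 134 of 237 WT cells with Pax1 and in 54 of 389 without it. In each of these settings the share was higher in cells with Pax1, and the size of the gap in WT depended on the draw.

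Uncx and Tbx18 were seldom found in the same paraxial cell. At 2000 UMIs, Tbx18 was found in 0.753% of WT cells with Uncx and in 2.06% of those without it, and in KO in 0.177% and 1.47%. These shares stand for a mean of 0.972 WT cells and 0.327 KO cells with both genes. The planned draw had 0 cells with both among 626 in WT, which allows a share of up to 0.588%, and another draw had 2. With all UMIs, 20 WT cells had both, 6.62% (4.09 to 10.0) of cells with Uncx against 15.4% (11.7 to 19.8) of those without it. In KO 20 cells had both, 4.50% (2.77 to 6.87) against 12.1% (9.47 to 15.2). In the planned draw the WT difference (cells with Uncx minus those without) was -0.81 percentage points (-2.06 to 1.99), an interval that holds 0, and it changed sign to 1.08 when cells were limited to under 5% mitochondrial UMIs. The counts with both genes are small, and at 2000 UMIs only 1.79% of WT and 1.23% of KO paraxial cells held Tbx18 at all.

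Sox5 and Sox6 each had a larger mean share among paraxial cells with Sox9 than among those without it. These mean shares carry no interval, and their differences were not tested. In WT paraxial cells Sox5 was found in 15.3% of cells with Sox9 and 10.9% of those without, and in KO in 19.9% and 10.2%. Sox6 was found in 4.03% and 2.17% in WT and in 7.82% and 3.09% in KO. Among paraxial cells with Sox9, 0.750% in WT and 2.15% in KO held both, where the planned draw gave 3 of 172 and 9 of 244 cells. Without Sox9 the planned draw gave 1 of 454 cells in WT and 6 of 737 in KO. Its intervals with and without Sox9 overlapped in WT (0.361 to 5.01% and 0.0056 to 1.22%). They also overlapped in KO (1.70 to 6.89% and 0.299 to 1.76%). With all UMIs, both were found in 16.9% (13.6 to 20.8) of WT cells with Sox9 and 28.5% (24.9 to 32.2) of KO ones. Without Sox9 the shares were 1.64% (0.339 to 4.72) in WT and 3.49% (1.87 to 5.89) in KO. The paraxial cells had medians of 15420 UMIs in WT and 14095 in KO.

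Most cells with Acan also held Sox9. Over all cells at 2000 UMIs, Sox9 was found in 64.4% of WT cells with Acan and 13.5% of those without, and in KO in 68.7% and 17.2%. With all UMIs, 197 of 208 WT cells with Acan and 466 of 481 KO cells had Sox9. Of the cells with Acan, 16.5% in WT and 26.6% in KO held Sox6, against 2.81% and 4.13% of the rest.

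**Figure D4:**
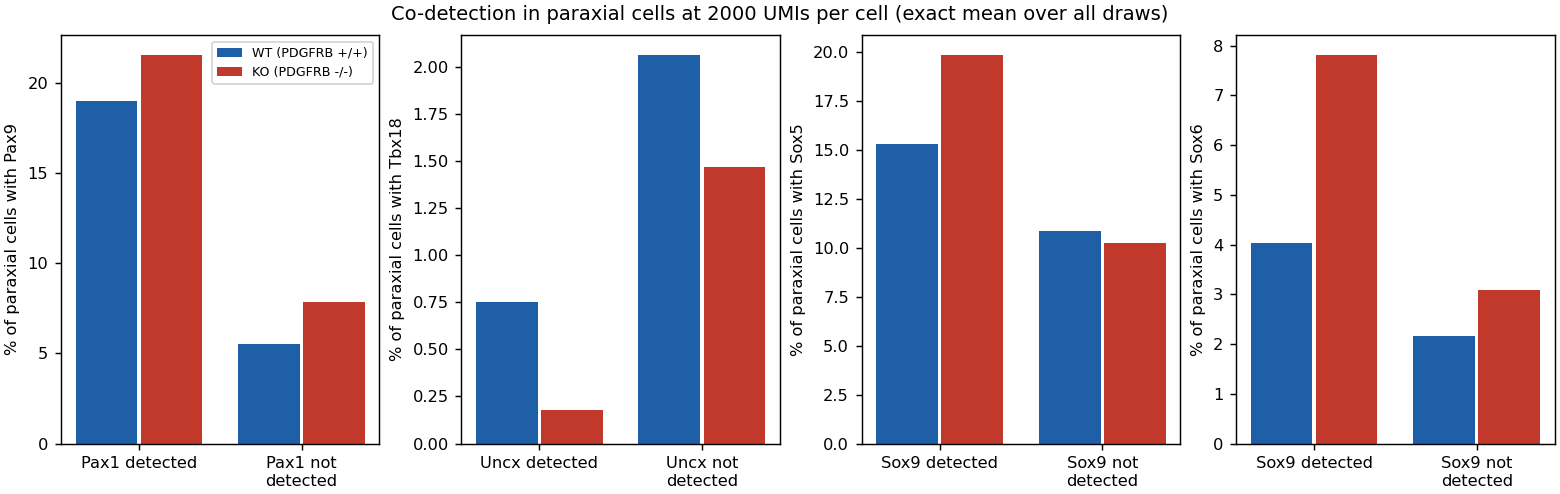
Percent of paraxial cells with the second gene of each pair, among cells with and without the first, at 2000 UMIs per cell as the exact mean over all draws, with WT in blue and KO in red. Bars carry no error, the axes differ between panels, and Pax9 stands at 19.0% against 5.54% in WT while Tbx18 stands at 0.753% against 2.06%.

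The genes most like each member were ranked by Pearson's r of log values across the 626 WT paraxial cells, among 9147 genes. These values are descriptions over cells of 1 library that share depth. Sox9 was closest to Col2a1 (r = 0.513 in WT and 0.485 in KO). Uncx was closest to Irx2, an Iroquois homeobox gene (0.510 and 0.511). Pax1 was closest to AI646519 (0.556 and 0.614), which overlaps Pax1 on the opposite strand. The part of this overlap in the likeness was not tested. Pax9, which lies on chromosome 12 and does not overlap AI646519, was also closest to it (0.384 and 0.293). Foxc2 had Foxc1 as its second gene in WT (0.261) and first in KO (0.268). For Nkx3-2, the leading gene Gpc2 had an r of 0.196 in WT and 0.025 in KO.

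Within the WT paraxial cells, the study's split by Pdgfrb and Cspg4 (which encodes NG2) gave 25 cells with both (DP), 204 with Pdgfrb only, 31 with Cspg4 only and 366 with neither (DN). The DP cells held 187 CPM of Pax1 (157 to 220), and the cells with Cspg4 only 109 (85.1 to 137). The DN cells held 85.3 CPM (77.8 to 93.2), and the cells with Pdgfrb only 57.1 (50.9 to 63.9). The study used the split for populations of the whole AGM, and reported Sox9, Pax1, Pax9 and Acan as enriched in its NG2-only population. Here Pax9 stood at 69.5 CPM (50.9 to 92.7) with Cspg4 only and 68.7 (51.5 to 89.9) in DP cells. It stood at 40.1 CPM in DN cells and 31.0 with Pdgfrb only. Sox9 stood at 193 CPM (161 to 230) with Cspg4 only and 226 (193 to 262) in DP cells, with overlapping intervals. Acan had 7 or fewer UMIs in each gate. Here a gene counted from 1 UMI, and within paraxial cells only. Uncx was highest among DN cells (170 CPM, 159 to 181). The DP cells held 84.3 CPM (65.1 to 107), the cells with Cspg4 only 104 (81.1 to 132) and those with Pdgfrb only 113 (104 to 122). The interval of the DP cells overlapped with both of the others. The DP cells had a median of 26473 UMIs and the DN cells 13418, and the part of depth in these gates was not tested.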

How the data were processed

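Whole AGM regions of embryonic day 11 were measured by 10x 3′ sequencing, 1 library per genotype. The authors deposited unfiltered UMI counts per gene and barcode from Cell Ranger 3.1.0 on mm10 (GRCm38), per the submitters' processing notes, with no normalization. The libraries held 179743201 (WT) and 174597654 (KO) UMIs.

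Members and lists were chosen with earlier results of these data known. Cells had at least 2000 UMIs and under 10% mitochondrial UMIs, and classes needed 2 markers (3 for smooth muscle); 1 paraxial marker is not reported here. Doublets were not called; leaving out cells of 2 classes was an alternative. Summed counts were scaled to CPM with exact Poisson intervals, ratios with exact conditional intervals and shares with Clopper-Pearson intervals. Genes with at least 50 UMIs in the groups compared were counted past 2-fold. For co-detection, cells were thinned to 2000 UMIs, and the exact hypergeometric mean over all draws was added after seeing that single draws differed. Genes named for likeness were the 3 with the highest r. Counts simulated from a Poisson model with known changes served to check the computing of the ratio intervals. The intervals assume the same model, so this check does not cover the spread between cells. The thinning was checked by setting repeated draws from real WT paraxial cells against their exact mean. Positions came from GENCODE M21. Python 3.11.15, numpy 2.4.6, scipy 1.17.1 and pandas 2.3.3 were used, and edgeR for TMM factors only. Of 20 cartilage list genes, 19 were in the tables.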

Additional observations from a re-analysis of the deposited data

Results flagged for a closer look

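Sox6 lay on opposite sides of 0 in the libraries when paraxial cells were set against the other classes, with a log2 ratio of -0.33 (-0.57 to -0.09) in WT and 0.56 (0.40 to 0.72) in KO. The difference of 0.89 was not tested, since each genotype has 1 library.

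Between KO and WT, 4 members had an interval above 0 in some classes and an interval below 0 in others. None of these differences was tested. The share of all genes that meet the same rule was not taken, so nothing is read from this count. Sox6 was higher in KO in myogenic cells by 1.21 (40 and 222 UMIs in WT and KO) and was at -0.58 in splanchnic mesenchyme (652 and 250), a difference of 1.79. Uncx was at 2.01 in erythroid cells (24 and 34) and at -0.14 in paraxial cells (1696 and 2193), a difference of 2.15. Tbx18 was at 0.30 in smooth muscle (324 and 324) and at -1.48 in macrophages (41 and 11), a difference of 1.78. Foxc2 was at 0.95 in macrophages (36 and 52) and at -0.93 in neural crest and sympathetic cells (146 and 59), a difference of 1.87. In free RNA Uncx stood at 32.2 CPM in WT and 28.8 in KO, and its part in the erythroid and macrophage values was not tested. Single cells also held a large part of these small counts. The highest macrophage had 22 of 41 Tbx18 UMIs in WT and 7 of 11 in KO, and 9 of 36 and 17 of 52 Foxc2 UMIs. The highest erythroid cell had 10 of 24 Uncx UMIs in WT and 14 of 34 in KO. Counting intervals do not cover this, and its part in the differences was not tested.

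Barcodes of at least 500 and under 2000 UMIs entered no comparison. The 10 members together stood there at 207 CPM in WT (7157 barcodes) and 275 CPM in KO (7267 barcodes), below their summed level of 292 and 402 CPM in free RNA.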

How the results depend on the processing

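Over 18 alternatives, 98 of 133 values of the main results kept within their interval or within 1.5 times the count, among them the WT Tbx18 difference, which changed sign to 1.08 under 5% mitochondrial UMIs. Of 342 values of single genes, 243 did so, 94 moved further and 5 changed sign where the main interval did not hold 0. Sign changes from a main interval that held 0 are counted among the kept or moved values. Sox9 and Tbx18 between KO and WT in paraxial cells had 2 such changes each. No paired analysis was possible because each genotype has 1 library. The co-detection values depended most on the setting. The Pax9 difference (cells with Pax1 minus cells without, 20.3 percentage points in WT and 15.7 in KO in the planned draw) came in WT to 4.30 with cells of 1000 or more UMIs, 10.3 with 5000, 5.81 under 5% mitochondrial UMIs, 9.43 with 3 of 4 paraxial markers, 8.20 with another draw and 42.7 unthinned, and in KO to 5.02 with 1000, 5.15 under 5% mitochondrial UMIs and 36.0 unthinned. The Tbx18 difference (-0.81 in WT and -1.02 in KO) came in WT to -2.89 with 5000, -8.81 unthinned and -2.50 over all cells, and in KO to -2.17 without KO cells with a Pdgfrb UMI, -7.60 unthinned and -2.11 over all cells. The share with both Sox5 and Sox6 (1.74% and 3.69%) came in WT to 0 with 5000, under 5% mitochondrial UMIs, with 3 of 4 markers and with another draw, and to 16.9% unthinned, and in KO to 0 with 1000, 0.976% without cells with a Pdgfrb UMI, 1.65% with another draw and 28.5% unthinned.

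Paraxial cells of all cells in a class came to 5.73% in WT and 13.0% in KO with 3 of 4 markers, 19.0% and 33.8% with the gate on Meox1 and Tcf15, 17.5% and 32.3% without cells of 2 classes, and 24.9% in KO under 5% mitochondrial UMIs, where 8 members passed 2-fold in KO paraxial cells against the other classes, beside 6.74% of all genes. With TMM factors, per-cell means or the gate on Meox1 and Tcf15, 1 member passed 2-fold between KO and WT. That member was Acan, which in the main setting reached the minimum of UMIs through its KO counts, so nothing is read from this count. The share of all genes past 2-fold between KO and WT was not taken in these settings. Tbx18 in WT paraxial cells over other classes (-0.32) changed sign, to 0.65 under 5% mitochondrial UMIs, 0.032 with Meox1 and Tcf15, 0.11 without cells of 2 classes and 0.067 as per-cell means. Sox5 between KO and WT came to -0.15 with 3 of 4 markers. The causes were not tested. Nkx3-2 had 5 UMIs in WT and 8 in KO paraxial cells.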
